A study of Caenorhabditis elegans with 22 samples.

Results

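The genes described here are the F-box A genes of Caenorhabditis elegans, taken as every row of the deposited count table whose gene name is fbxa- followed by a number. There were 192 of them among the 45461 genes of the table. RNA came from whole adult animals kept on agar plates with 100 nM rotenone, an inhibitor of respiratory complex I, or with its solvent DMSO, at 4 adult ages, here called days 1, 5, 10 and 20 and counted from the L4 larval stage that precedes adulthood. Each of the 8 groups of treatment and day held 3 libraries, except the 2 groups of day 20 with 2 each, which made 22 libraries. The strain is not given in the sources used here, and the labels name no transgene or mutation. They leave unsaid whether the replicates were grown as separate cultures. The p-values below therefore cover just the variation among these libraries, part or all of which may be technical.

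F-box proteins are the substrate adaptors of SCF ubiquitin ligases: the F-box binds a Skp1-related protein, which links it to a cullin, and the rest of the protein chooses the target to be ubiquitylated. Caenorhabditis elegans has an unusually large set of them, much of it in clusters of neighbouring, recently duplicated genes. Most proteins of the A group pair the F-box with an FTH domain (also called DUF38), and the targets of nearly all of them are unknown. FBXA-75 and FBXA-158 are exceptions in that they have been placed in a ligase with the cullin CUL-6 and the Skp1-related proteins SKR-3, SKR-4 and SKR-5, which acts in the intracellular pathogen response, a programme of the intestine and epidermis against viruses and microsporidia.

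Of the 192 members, 75 lay on chromosome V, 68 on III, 19 on II, 17 on X, 7 on I and 6 on IV in the RefSeq annotation of WBcel235. RefSeq listed 169 as protein coding and 22 as pseudogenes, and 1 member, fbxa-6, was not matched. Another 30 genes that RefSeq gives fbxa- symbols have other names in the count table and are outside the rule. Neighbours were common: 135 members lay within 20000 bases of another member, in 27 runs, of which the longest held 30 members on chromosome III (1236015 to 1349450). Exonic lengths ran from 197 to 5668 bases with a median of 1118. Exons of 23 members overlapped exons of a gene on the opposite strand, and the library kit does not mark the strand, so reads of such pairs were not separated. Near-identical copies may also share reads, and how the authors' counting treated reads with several matches is not given in the sources used here.

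Total counts per library ran from 25769159 to 69961601. DMSO day 10 replicate 1 stood apart from its group: 6.88% of the 16822 tested genes, and 5 F-box A genes, differed over 2-fold from the mean of the other libraries of the group, against at most 1.43% of genes and no F-box A gene in any other library. Counts of members and log2 fold changes of named members that use the DMSO libraries of day 10 are therefore also given without it. All 17 germline, 14 oocyte and eggshell, 12 intestine and 52 sperm markers and 41 of 42 embryo markers had reads in at least 1 library.

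F-box A genes were expressed at low levels. The median of the members' mean levels over the 22 libraries was 0.480 CPM (read counts relative to the library total after TMM scaling), 110 members averaged under 1 CPM, 66 from 1 to 10 CPM and 16 at least 10 CPM. The 6 members with the highest level per kilobase of exon made up 56.5% of the summed level of all 192. Of these, fbxa-215 (Y45F10C.3, chromosome IV, 13665364 to 13666909) stood far above the rest at 217 CPM per kilobase, followed by fbxa-210 at 53.8, fbxa-101 at 43.7, fbxa-206 at 34.4, fbxa-107 at 29.0 and fbxa-192 at 20.5 CPM per kilobase. No read was counted in any library for 6 members: fbxa-17, fbxa-41, fbxa-91, fbxa-151, fbxa-208 and fbxa-221. The filter on low counts left 159 members for the tests, and 33 were not tested, including those 6. The untested member with the most reads was fbxa-134, with 109 over all libraries.

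Whether rotenone changed these genes was asked at each age against DMSO of the same age. In the fit of all 22 libraries few F-box A genes passed, as did few genes in all. By edgeR's quasi-likelihood test with Benjamini-Hochberg adjustment over all 16822 tested genes, no member passed at day 1, where 0.648% of all tested genes did. At day 5 only fbxa-163 passed, and was lower, where 0.773% of all genes were called lower and 0.880% in either direction. At day 10 only fbxa-24 passed, also lower, where 0.910% of all genes were called lower and 1.36% in either direction, and at day 20 no member passed, against 0.0654% of all genes. With an unadjusted p under 0.05 there were 21, 11, 13 and 5 members at days 1, 5, 10 and 20, which is 13.2%, 6.92%, 8.18% and 3.14% of those tested. Over all genes these shares were 19.4%, 9.24%, 11.03% and 4.75%. DESeq2 called 0, 1, 1 and 0 members. The members' median log2 fold changes were 0.01, 0.01, -0.03 and -0.04 at the 4 ages, and those of all genes 0.04, -0.01, -0.05 and 0.02. Without DMSO day 10 replicate 1 more genes passed at day 10. Then 6.32% of all tested genes were called higher and 7.95% lower, against 1.90% and 1.27% of the members.

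**Figure D1:**
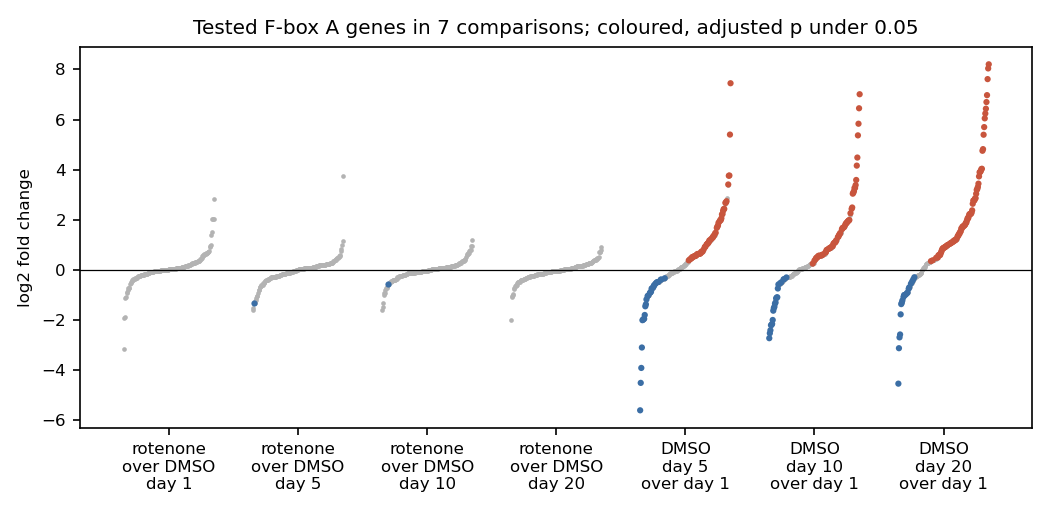
Log2 fold changes (y axis) of the 159 tested F-box A genes in 7 comparisons (x axis), each point a gene, sorted within a comparison, coloured where the adjusted p was under 0.05 (red higher, blue lower). The rotenone comparisons hold 2 coloured points in all, and the comparisons of DMSO at days 5, 10 and 20 with day 1 hold 87, 86 and 107. Folds of genes with few or no reads in a group depend on the prior count of the fit.

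The gene fbxa-163 (C08E3.6, chromosome II, 1609252 to 1610730) was at 1.45, 1.57 and 1.17 CPM in the DMSO libraries of day 5 and at 0.560, 0.610 and 0.504 CPM in the rotenone libraries. The groups did not overlap, and the log2 fold change was -1.33 ± 0.28 (SE, n = 3 per group, adjusted p = 0.0298). At day 10 the order was the other way, with 0.890, 0.759 and 0.996 CPM in DMSO and 1.26, 1.19 and 1.79 CPM in rotenone, which did not pass (log2 fold change 0.69 ± 0.25, adjusted p = 0.224, and 0.73 ± 0.26 with adjusted p = 0.0651 without DMSO day 10 replicate 1). Against day 1 of the same treatment it was higher by 3.77 ± 0.37 at day 5 and 3.08 ± 0.39 at day 10 in DMSO (log2, SE; 3.04 ± 0.42 without that library), and by 2.41 ± 0.45 and 3.75 ± 0.37 in rotenone. The day 5 call was lost when any of DMSO day 5 replicates 1 and 2 or rotenone day 5 replicates 1, 2 and 3 was left out, with adjusted p from 0.0866 to 0.187 and log2 fold changes from -1.38 to -1.23.

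The gene fbxa-24 (F54D10.2, chromosome II, 3816526 to 3818238) was at 14.96, 12.8 and 12.7 CPM in DMSO and at 9.50, 9.95 and 7.74 CPM in rotenone at day 10, with no overlap (log2 fold change -0.57 ± 0.13, SE, n = 3 per group, adjusted p = 0.0318). It had reached 120 and 161 CPM in DMSO and 134 and 135 CPM in rotenone by day 20, where the treatments overlapped and the log2 fold change was -0.06 ± 0.15 (adjusted p = 1). The day 10 call was lost with RLE size factors (adjusted p = 0.0512), when only the 2 groups were fitted (0.578) and without DMSO day 10 replicate 2 or 3 or rotenone day 10 replicate 1 or 3 (0.0592 to 0.218). Without DMSO day 10 replicate 1 it held (log2 fold change -0.47, adjusted p = 0.0185). Leaving that library out brought 4 more members past the threshold at day 10, with adjusted p from 0.0164 to 0.0451. Of these, fbxa-11 was lower and fbxa-69, fbxa-140 and fbxa-189 were higher. Many more genes passed in that fit: 6.32% of all tested genes were called higher and 7.95% lower, against 1.90% and 1.27% of the members. The shares of the members were thus below those of all genes in both directions.

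In the fit without a replicate block, neither gene's rotenone effect was shown to differ from that at day 1. No member passed the interaction test at day 5, 10 or 20, where 0.487%, 0.357% and 0.0416% of all genes did, with 7, 15 and 14 members at an unadjusted p under 0.05, or 4.40%, 9.43% and 8.81% of those tested, against 10.6%, 12.6% and 9.55% of all genes. The smallest adjusted p belonged to fbxa-24 at day 10, whose rotenone effect was lower than at day 1 by a log2 difference of -1.01 ± 0.22 (adjusted p = 0.0558), or -0.87 ± 0.23 without DMSO day 10 replicate 1 (adjusted p = 0.0907), where no member passed either at day 10. With the replicate number as a block, this difference passed (-1.02 ± 0.19, adjusted p = 0.0300), as it did with a replicate block at each day (adjusted p = 0.0391). Deviations of same-numbered libraries all correlated at over 0.1 at day 10 and not at day 1. At day 10 differently numbered libraries among replicates 2 and 3 correlated as highly, so the numbers do not establish pairs. DESeq2 also called this difference (adjusted p = 0.0175), and called no member at day 5 or 20. The most abundant members hardly moved: log2 fold changes of rotenone over DMSO for the 6 named above ran from -0.29 to 0.03 at day 1, 0.06 to 0.21 at day 5, -0.02 to 0.15 at day 10 (-0.08 to 0.22 without DMSO day 10 replicate 1) and -0.04 to 0.17 at day 20, and none passed.

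The count at day 1 differed between fits. It was 0 with all groups in the fit, 13 (9 higher and 4 lower) when only the 6 libraries of day 1 were fitted, and 6 (3 higher and 3 lower) without DMSO day 10 replicate 1, which is not a day 1 library. Shares of all genes in the last 2 fits are not given here, so these counts are no result about the members. With all groups in the fit, 13.2% of the members and 19.4% of all genes had an unadjusted p under 0.05. The cause was not tested. The member with the smallest adjusted p in the fit of day 1 alone was fbxa-55, chosen here after its values were seen. It was at 3.21, 3.60 and 2.95 CPM in DMSO and at 5.18, 4.62 and 5.53 CPM in rotenone, without overlap, and had log2 fold changes of 0.62 with adjusted p = 0.000686 in that fit and 0.64 ± 0.27 with adjusted p = 0.230 in the fit of all groups.

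Age had a far larger effect. Compared with DMSO at day 1, 58 of the 159 tested members were higher and 29 lower at day 5, 64 higher and 22 lower at day 10, and 87 higher and 20 lower at day 20 (edgeR, adjusted p under 0.05). Of all 16822 tested genes 56.0%, 56.3% and 58.7% passed: 24.6%, 26.7% and 27.8% were called higher and 31.3%, 29.6% and 30.9% lower at these ages. Members higher therefore made up 36.5%, 40.3% and 54.7% of those tested and members lower 18.2%, 13.8% and 12.6%. The median log2 fold change of the tested members was 0.24, 0.37 and 0.87, against -0.05, 0.01 and -0.01 over all genes. These comparisons share the day 1 libraries. The counts leave out the members that failed the filter, and a member near the filter had to be high in some group to be tested. With no filter, 88 of 186 members with a read were higher at day 20 and 18 lower, with a median of 0.83. Shares of all genes in the fit with no filter are not given here, so this count is no result about the members. Without DMSO day 10 replicate 1, 59 members were higher and 28 lower at day 10, or 37.3% and 17.7% of those tested in that fit. In the same fit 27.9% of all tested genes were higher and 33.0% lower. In RNA of whole animals, fewer cells of a type and less RNA per cell cannot be told apart.

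Over the 3 ages, 95 tested members were higher at 1 or more and lower at none, 31 lower at 1 or more and higher at none, 7 passed in both directions and 26 passed at no age. Of these, 41 were higher at every later age, 23 were higher at day 20 with no call before, and 11 were lower at every later age. Over all 16822 tested genes, 36.8% were higher at 1 or more ages and lower at none, 37.8% the reverse, 7.12% passed in both directions and 18.3% at no age, against 59.7%, 19.5%, 4.40% and 16.4% of the members. Of all genes 10.7% were higher at every later age, 7.62% higher at day 20 with no call before and 17.6% lower at every later age, against 25.8%, 14.5% and 6.92% of the members. The 7 counts of members, without DMSO day 10 replicate 1, were 93, 32, 10, 23, 41, 25 and 14, in the order given above. Shares of all genes for these 7 patterns in that fit are not given here. The mean level was highest at day 20 for 84 members, or 52.8% of those tested, against 30.8% of all tested genes, and at day 1 for 27 members, or 17.0%, against 31.6%.

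**Figure D2:**
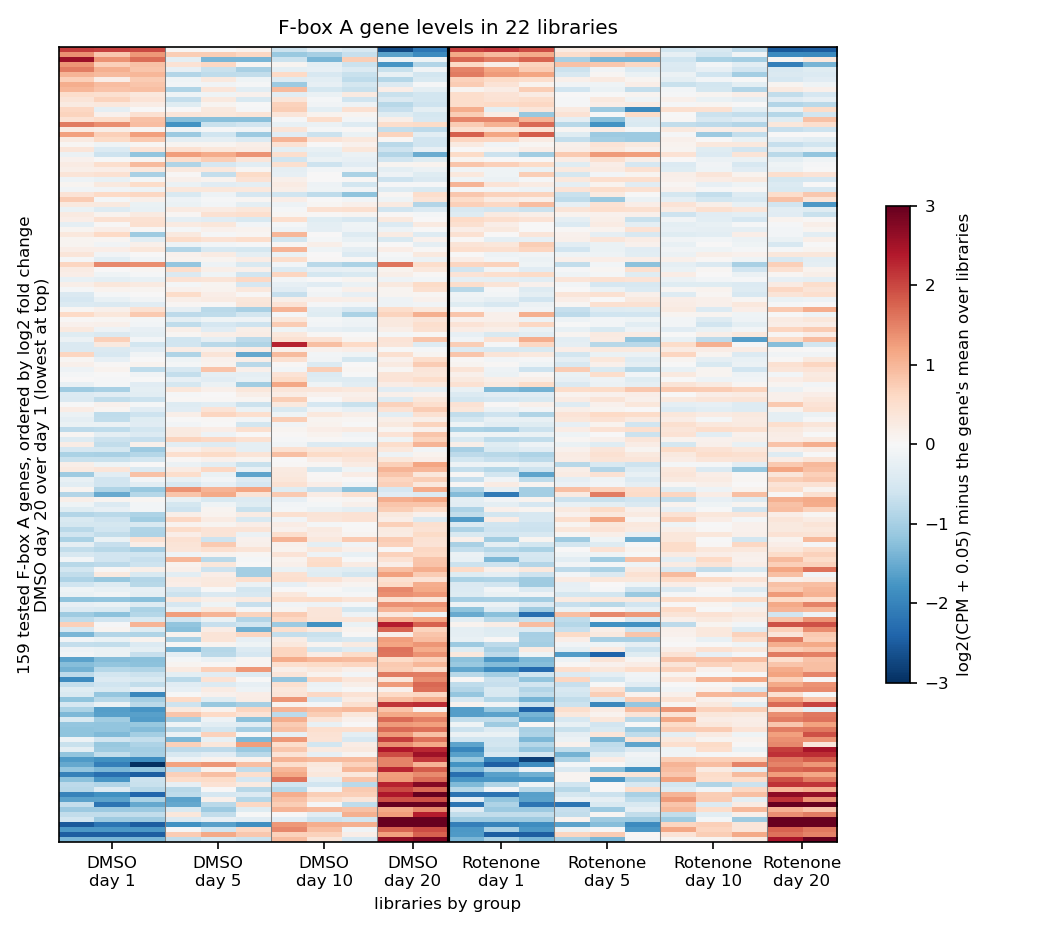
Levels of the 159 tested F-box A genes (rows, ordered by their log2 fold change in DMSO from day 1 to day 20, lowest at the top) in 22 libraries (columns by group), as log2(CPM + 0.05) minus the gene's mean over libraries. Blue turns to red from day 1 to day 20 over most of the lower part of the map in both treatments, and red turns to blue in a smaller block of rows at the top. The order of rows uses the DMSO libraries of days 1 and 20.

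The member that rose most among those with a mean of at least 20 counts was fbxa-24, whose product has no known role to name here. Its DMSO libraries were at 1.01, 1.28 and 1.04 CPM at day 1, 1.67, 1.91 and 1.64 CPM at day 5, 14.96, 12.8 and 12.7 CPM at day 10, and 120 and 161 CPM at day 20. No group overlapped the one before it, and most of the rise in CPM, though not in log2 fold change, came after day 10. Log2 fold changes over day 1 were 0.65 ± 0.17 (adjusted p = 0.00374), 3.59 ± 0.16 (adjusted p = 3.22e-13) and 6.98 ± 0.18 (SE, n = 2 and 3, adjusted p = 1.31e-16). The middle value was 3.47 ± 0.16 without DMSO day 10 replicate 1. Its share of all reads on F-box A genes went from 0.152% at day 1 to 14.0% at day 20 in DMSO, and from 0.203% to 13.7% in rotenone. The gene lies more than 20000 bases from any other member.

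Another late riser, fbxa-30 (ZC47.4, chromosome III, 1274425 to 1275613), went from 0.0874, 0.106 and 0.0563 CPM at day 1 to 2.94 and 4.76 CPM at day 20 in DMSO (log2 fold change 5.39 ± 0.27, adjusted p = 1.46e-12). It had passed at each earlier age, with group means of 0.328 CPM at day 5 and 0.950 CPM at day 10, where the log2 fold change was 3.39 ± 0.30, or 3.25 ± 0.34 without DMSO day 10 replicate 1. In the run on chromosome III at 2217173 to 2314035, fbxa-47 (C39B5.9) rose from a mean of 0.0809 to 1.24 CPM at day 20 (3.94 ± 0.45, adjusted p = 2.95e-07), and fbxa-48 (Y54F10BM.7) from 0.181 to 2.81 CPM (3.90 ± 0.31, adjusted p = 1.94e-09). Exons of fbxa-48 overlap those of fbxa-9 on the other strand, so its reads may in part be those of fbxa-9. Low in DMSO at day 1, fbxa-30 and fbxa-47 passed the filter on low counts through other groups. Their direction was thus largely fixed, and their p-values are descriptions.

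Some members rose early and then held or returned. The gene fbxa-95 (F28F8.4, chromosome V, 15571477 to 15572715) was at 8.09, 8.19 and 7.85 CPM in DMSO at day 1 and at 23.6, 21.3 and 22.6 CPM at day 5 (log2 fold change 1.48 ± 0.07, adjusted p = 4.03e-12), and stayed between 24.3 and 27.3 CPM at days 10 and 20. fbxa-182 (F42G2.4, chromosome II) rose from a mean of 0.727 CPM to 3.41 CPM at day 5 (2.23 ± 0.26, adjusted p = 5.03e-07) and stood at 5.00 CPM at day 20. By contrast fbxa-127 (T25E12.12, chromosome V) was at 0.328, 0.231 and 0.141 CPM at day 1, 0.973, 0.874 and 1.04 CPM at day 5, and 0.185 and 0.103 CPM at day 20. It passed at day 5 alone (1.99 ± 0.37, adjusted p = 0.000135), and its day 20 libraries overlapped those of day 1.

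**Figure D3:**
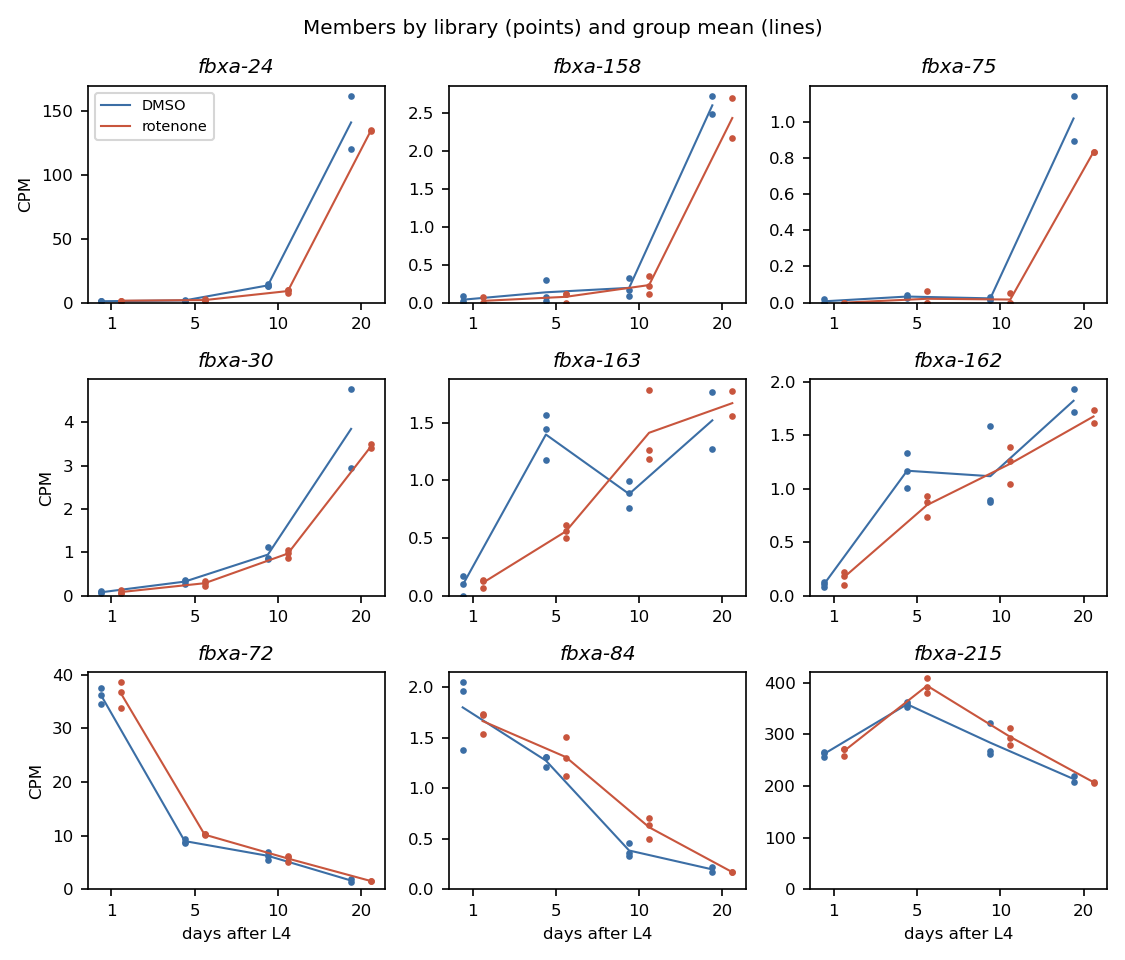
CPM (y axis, from 0) of 9 F-box A genes at 1, 5, 10 and 20 days after L4 (x axis, evenly spaced), with a point per library and a line through group means, in blue for DMSO and red for rotenone. fbxa-24, fbxa-158, fbxa-75 and fbxa-30 climb mainly between days 10 and 20, fbxa-163 and fbxa-162 by day 5, fbxa-72 and fbxa-84 decline, and fbxa-215 peaks at day 5.

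Both members of the CUL-6 ligase of the intracellular pathogen response stayed at or below 0.356 CPM in every library up to day 10, and both were detected in every library of day 20. For fbxa-75 (Y119D3A.1, chromosome III, 1303714 to 1305461) the 3 DMSO libraries of day 1 held 1 read and the 2 of day 20 held 94, a ratio per library size of 146 with an exact 95% counting interval of 25.6 to 5829. Its levels were 1.14 and 0.896 CPM at day 20, and no DMSO library of days 1 to 10 was over 0.0397 CPM. In rotenone it had 0 reads at day 1 and 89 at day 20, which is at least 32.8-fold higher when day 1 is set at a floor of 3 reads over the group. The intervals and floors cover counting error only. In the same run, fbxa-28 had 0 reads in DMSO at day 1 and 20 at day 20, at least 10.4-fold higher.

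The gene fbxa-158 (C08E3.10, chromosome II, 1619814 to 1621280) was at 0.0874, 0 and 0.0281 CPM in DMSO at day 1, 0.330, 0.172 and 0.0830 CPM at day 10, and 2.48 and 2.72 CPM at day 20. Day 10 missed the threshold (log2 fold change 2.21 ± 0.97, adjusted p = 0.0601, and 1.75 ± 1.02 with adjusted p = 0.146 without DMSO day 10 replicate 1). Only day 20 passed, with a log2 fold change of 6.05 ± 0.65 (adjusted p = 1.32e-07). The gene passed the filter on low counts through later groups, so its direction was largely fixed and this p-value is a description. In rotenone the day 20 libraries were at 2.17 and 2.70 CPM, which overlapped the DMSO ones, with a log2 fold change between treatments of -0.10 ± 0.41 (adjusted p = 1).

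Known partners of these adaptors were looked at in the same fit. The cullin gene cul-6 went from 4.07, 4.26 and 3.49 CPM at day 1 to 11.3 and 13.1 CPM at day 20 in DMSO (log2 fold change 1.62 ± 0.12, adjusted p = 6.37e-10). In DMSO it passed neither at day 5 nor at day 10, while in rotenone it passed at day 10 (0.47 ± 0.12, adjusted p = 0.00179). Values against day 1 in the next 2 sentences are those of DMSO. The Skp1-related gene skr-5 rose from a mean of 0.185 CPM to 2.39 CPM (3.63 ± 0.26, adjusted p = 3.66e-10), skr-3 by 0.70 ± 0.12 (adjusted p = 7.30e-05) and skr-4 by 0.61 ± 0.13 (adjusted p = 0.000402). The general SCF cullin gene cul-1 was at 193 CPM at day 1 and 164 CPM at day 20 (-0.24 ± 0.16, adjusted p = 0.203), and the general adaptor gene skr-1 rose by 0.45 ± 0.10 (adjusted p = 0.00102). With rotenone, skr-5 was lower at day 5, at 0.288, 0.267 and 0.310 CPM against 0.584, 0.794 and 0.637 CPM in DMSO (-1.23 ± 0.28, adjusted p = 0.0415), with no overlap.

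Of 41 tested genes of the intracellular pathogen response, mostly pals genes, a family of unknown biochemical function induced by intracellular infection, 36 were higher and 3 lower at day 20 in DMSO, with a median log2 fold change of 4.40. That list includes cul-6, skr-3, skr-4 and skr-5. In rotenone 35 were higher and 3 lower, with a median of 3.89. At day 5 there were 9 higher and 5 lower, and at day 10 28 higher and 3 lower in DMSO, or 26 and 4 without DMSO day 10 replicate 1. Of all tested genes 24.6% were higher and 31.3% lower at day 5 in DMSO, and 26.7% and 29.6% at day 10. The day 10 shares were 27.9% and 33.0% without that library. At day 20 the shares of all genes were 27.8% and 30.9% in DMSO, and 31.4% and 33.4% in rotenone. Among 24 tested genes of the SCF core, the cullin, RBX and Skp1-related genes, 9 were higher and 6 lower at day 20, with a median of 0.27. With rotenone, 2 genes of the core were lower than in DMSO at day 5 and 3 at day 10, or 4 without that library. Over all tested genes 0.773%, 0.910% and 7.95% were lower in these fits.

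The run of 9 members on chromosome II (1606595 to 1624672), fbxa-158 to fbxa-166, rose with age. Its summed level in DMSO was 0.376 ± 0.092 CPM at day 1 (SD, n = 3), 3.43 ± 0.39 CPM at day 5, 3.02 ± 0.81 CPM at day 10 and 8.25 ± 0.32 CPM at day 20 (SD, n = 2). All 7 tested members were higher at day 20 in both treatments. Of these, fbxa-158, fbxa-161, fbxa-164 and fbxa-165 had 0 to 5 reads each over the DMSO libraries of day 1 and passed the filter on low counts through later groups. As the whole run summed to 0.376 CPM at day 1, fbxa-162, fbxa-163 and fbxa-166 were low there too and depended on other groups to pass. The direction of the tested members was thus largely fixed by the filter. The count, and the p-values with age given here and below for this run, are descriptions. The remaining 2, fbxa-159 and fbxa-160, had at most 0.0503 CPM in any library. They did not keep the same time course. fbxa-162, which RefSeq lists as a pseudogene, went from 0.131, 0.106 and 0.0844 CPM to 1.17, 1.33 and 1.01 CPM already at day 5 (log2 fold change 3.41 ± 0.31, adjusted p = 1.63e-08) and to 1.71 and 1.93 CPM at day 20 (4.02 ± 0.31, adjusted p = 8.42e-10).

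Next to it, fbxa-163 rose by 3.77 ± 0.37 at day 5 (adjusted p = 5.25e-08) and by 3.91 ± 0.38 at day 20 (adjusted p = 3.60e-08). fbxa-164 had 0 reads at day 1, 56 at day 5 and 62 at day 20 in DMSO, at least 22.1-fold and 32.1-fold higher. fbxa-165 had 0 reads at day 1 and 71 at day 20, at least 36.8-fold higher, but only 0.0278, 0.0397 and 0.0336 CPM at day 5. fbxa-166 passed at day 20 alone (1.36 ± 0.41, adjusted p = 0.00832). With rotenone at day 5 the summed level of the run was 2.00 ± 0.10 CPM, below the DMSO value of 3.43 ± 0.39 CPM (SD, n = 3 each). All 7 tested members had log2 fold changes below 0, from -1.33 to -0.13, of which fbxa-163 passed. At day 10 the order was the other way, with 3.72 ± 0.60 CPM in rotenone and 3.02 ± 0.81 CPM in DMSO, a difference smaller than the SD of the DMSO libraries. Without DMSO day 10 replicate 1 the DMSO value was 2.56 ± 0.05 CPM (SD, n = 2). At day 20 the sums were 8.25 ± 0.32 and 8.34 ± 0.30 CPM (SD, n = 2 each).

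Members with a neighbour and lone members differed in their counts. Of 110 tested members within 20000 bases of another, 69 were higher and 6 lower at day 20 in DMSO, with a median log2 fold change of 1.03. Of 48 tested members farther than that from any other, 18 were higher and 13 lower, with a median of 0.11. In rotenone the counts were 70 and 10 of 110 (median 1.10) and 18 and 16 of 48 (median 0.03). Over all tested genes 27.8% were higher and 30.9% lower in DMSO, and 31.4% and 33.4% in rotenone. Neighbours may share sequence and reads, so they are not independent, and the split was not tested. Members with few or no reads at day 1 passed the filter through later groups, so their direction was largely fixed. Counts also differed with level per kilobase in DMSO at day 20. The lowest 53 tested members had 30 higher and 2 lower (median 1.36). The middle 53 had 26 and 8 (0.59), and the highest 53 had 31 and 10 (0.58). The part of level in the split was not tested. The 30-member run on chromosome III had 15 higher and 1 lower of 25 tested, that of 16 members had 9 higher of 15 tested, and that of 11 members (933422 to 963833) had 7 higher and 1 lower of 10 tested. Their summed levels went from 24.1 ± 0.4 to 56.1 ± 3.4, from 6.86 ± 0.63 to 17.0 ± 2.4 and from 27.0 ± 1.4 to 52.5 ± 10.9 CPM between days 1 and 20 in DMSO (SD, n = 3 and 2).

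**Figure D4:**
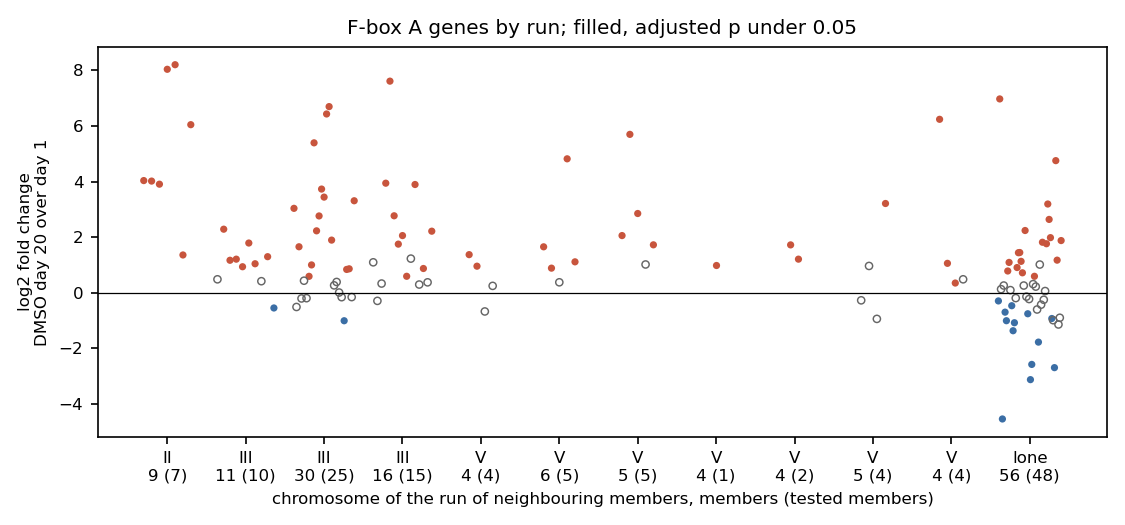
Log2 fold change from day 1 to day 20 in DMSO (y axis) of tested F-box A genes, grouped by runs of at least 4 members with gaps of at most 20000 bases (x axis, by chromosome, with members and tested members), and of lone members at the right; points are in genome order within a run. Filled points passed (red higher, blue lower) and open ones did not. All 7 tested genes of the run on II are red, while the 48 lone members hold 18 red and 13 blue points. Folds of genes with few or no reads at day 1 depend on the prior count of the fit.

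Beside fog-2, an F-box gene that promotes sperm formation in hermaphrodites and whose name does not follow the fbxa- pattern, lies a run of 4 members (V, 20187657 to 20204547). fbxa-114 in it was at 15.7 CPM at day 1 and 22.4 CPM at day 5 (log2 fold change 0.51 ± 0.10, adjusted p = 0.000351), and fbxa-115 went from 3.02 CPM to 6.27 CPM at day 20 (1.06 ± 0.14, adjusted p = 1.43e-06). fbxa-116 had 0 reads in DMSO at day 1 and 18 at day 20, at least 9.32-fold higher. fog-2 itself was at 34.9 CPM at day 1, 54.3 CPM at day 5 (0.64 ± 0.08, adjusted p = 1.19e-06) and 38.3 CPM at day 20 (0.13 ± 0.09, adjusted p = 0.198).

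Fewer members fell. Of those described next, fbxa-72, fbxa-84, fbxa-190, fbxa-46 and fbxa-216 lie over 20000 bases from any other member. fbxa-72 (F31F4.15, chromosome V, 674886 to 676753) was at 37.5, 36.2 and 34.5 CPM in DMSO at day 1, 8.86, 8.66 and 9.36 CPM at day 5, 5.50, 6.90 and 6.23 CPM at day 10, and 1.29 and 1.90 CPM at day 20. Each group lay wholly below the one before, with log2 fold changes from day 1 of -2.01 ± 0.11 (adjusted p = 1.44e-11), -2.53 ± 0.11 (adjusted p = 3.82e-13, and -2.48 ± 0.11 without DMSO day 10 replicate 1) and -4.54 ± 0.15 (adjusted p = 4.70e-15). The rotenone means, 36.4, 10.2, 5.70 and 1.49 CPM, followed closely.

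A later decline was seen in fbxa-84 (T09F5.11, chromosome V), at 2.05, 1.38 and 1.97 CPM at day 1 and 0.330, 0.362 and 0.457 CPM at day 10 (log2 fold change -2.20 ± 0.20, adjusted p = 1.40e-08, and -2.16 ± 0.22 without DMSO day 10 replicate 1), then 0.218 and 0.172 CPM at day 20 (-3.13 ± 0.26, adjusted p = 3.61e-09). The X-linked fbxa-190 (F56C3.2) fell from a mean of 1.54 CPM to 0.282 CPM at day 20 (-2.58 ± 0.33, adjusted p = 1.50e-06), and fbxa-46 (F52D2.8), a pseudogene on X, from 0.906 CPM to 0.231 CPM by day 5 (-1.96 ± 0.28, adjusted p = 6.73e-06) with little change after. fbxa-216 (Y47H9C.10, chromosome I) fell from 8.01 CPM to 2.29 CPM at day 5 (-1.80 ± 0.26, adjusted p = 7.26e-06). At day 10 it was at 6.10, 2.88 and 2.51 CPM, the highest in DMSO replicate 1. For fbxa-61 the level fell from 2.31 to 1.01 CPM at day 5, and for fbxa-74 from 4.25 to 2.06 CPM. fbxa-38 fell to 0.524 CPM at day 10 from 1.44 CPM and was back at 1.21 CPM at day 20, where it did not pass (adjusted p = 0.289). Its fall at day 10 was -1.48 ± 0.23 (adjusted p = 1.72e-05), and -1.61 ± 0.25 without DMSO day 10 replicate 1.

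Among 7 members that passed in both directions, the most abundant of all, fbxa-215, was at 265, 265 and 256 CPM in DMSO at day 1, 362, 360 and 354 CPM at day 5, 322, 262 and 268 CPM at day 10, and 220 and 207 CPM at day 20. It rose by 0.45 ± 0.08 at day 5 (adjusted p = 9.64e-05) and was lower than at day 1 by day 20 (-0.30 ± 0.09, adjusted p = 0.00915). The day 20 call was lost without DMSO day 20 replicate 2 (adjusted p = 0.0777) and with no filter (0.0526). fbxa-206 and fbxa-51 had the same order of calls, and the call of fbxa-206 at day 20 was lost without DMSO day 20 replicate 1 (adjusted p = 0.0792). The opposite order, lower at day 5 and higher at day 20, was found in fbxa-155, fbxa-67, fbxa-11 and fbxa-150. For fbxa-150 the means were 3.88, 3.08, 4.72 and 11.3 CPM at days 1, 5, 10 and 20.

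Of the other abundant members, fbxa-107 (Y37H2A.4, chromosome V, 18123939 to 18125247) rose at every step in DMSO, from 10.97, 11.9 and 11.4 CPM at day 1 to 28.5, 27.5 and 27.8 CPM at day 5, 38.1, 39.9 and 41.9 CPM at day 10 and 46.6 and 53.5 CPM at day 20 (log2 fold change at day 20 2.13 ± 0.10, adjusted p = 3.61e-13). Its neighbour fbxa-210, 128 bases away, rose less, from 52.9 CPM to 80.5 CPM at day 5 and 68.9 CPM at day 20 (0.38 ± 0.07, adjusted p = 9.49e-05). fbxa-101 rose from 38.2 to 51.1 CPM at day 5 and 53.8 CPM at day 20, and fbxa-192 from 20.7 to 30.5 CPM at day 5, with 17.6 CPM at day 20 (-0.24 ± 0.13, adjusted p = 0.117).

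Summed over all 192 members, F-box A genes took 731 ± 7 CPM in DMSO at day 1 (SD, n = 3), 955 ± 9 at day 5, 917 ± 66 at day 10 (879 ± 5 without replicate 1, n = 2) and 1002 ± 45 CPM at day 20 (SD, n = 2). In rotenone the sums were 746 ± 19, 1017 ± 46, 929 ± 7 and 984 ± 19 CPM. Lowest and highest libraries were 725 and 739 CPM in DMSO at day 1 and 970 and 1033 CPM at day 20. Without fbxa-215 and fbxa-24 the DMSO means were 468, 594, 619 and 647 CPM. The share of fbxa-215 in the reads on F-box A genes went from 35.8% at day 1 to 21.4% at day 20 in DMSO and from 35.9% to 21.1% in rotenone.

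More members were also detected with age. At a common depth of 25769159 reads, that of the shallowest library, the number of members expected to have a read was 154 ± 1, 159 ± 2, 166 ± 4 and 176 ± 1 in DMSO at days 1, 5, 10 and 20, and 154 ± 5, 155 ± 2, 164 ± 3 and 175 ± 1 in rotenone (SD, n = 3, or 2 at day 20). Before that adjustment, libraries held reads of 150 to 182 members. The number expected with at least 10 reads went from 96.8 ± 2.8 to 126 ± 2 in DMSO. The same numbers over all genes are not given here, so a rise particular to these members cannot be read from them.

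Members called with age in DMSO and in rotenone overlapped. The same overlap and correlation over all tested genes are not given here. Agreement particular to these members therefore cannot be read from the values below. DMSO and rotenone series share no library, and each was compared with its own day 1. In rotenone 50 members were higher and 34 lower at day 5, 65 and 31 at day 10, and 88 and 27 at day 20, where 62.7%, 60.3% and 64.8% of all tested genes passed: 27.3%, 26.6% and 31.4% were higher and 35.4%, 33.7% and 33.4% lower. Of the members higher at day 20, 78 were so in both treatments, which is 89.7% of those in DMSO and 88.6% of those in rotenone. Of the members lower, 17 were so in both, 85.0% and 63.0%. At day 10, 56 were higher in both, which is 87.5% of those in DMSO and 86.2% of those in rotenone, and 17 lower in both, 77.3% and 54.8%. Without DMSO day 10 replicate 1 these were 55 higher (93.2% and 80.9%) and 26 lower (92.9% and 72.2%). At day 5, 47 were higher in both (81.0% and 94.0%) and 24 lower in both (82.8% and 70.6%). No member passed in opposite directions at any age. Across the 159 members, which are not independent replicates, the day 20 log2 fold changes in the 2 treatments had a Pearson r of 0.93 and a Spearman rho of 0.95, and 146 had the same sign. At days 5 and 10 the Pearson r was 0.87 and 0.88, and at day 10 without DMSO day 10 replicate 1 it was 0.87.

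**Figure D5:**
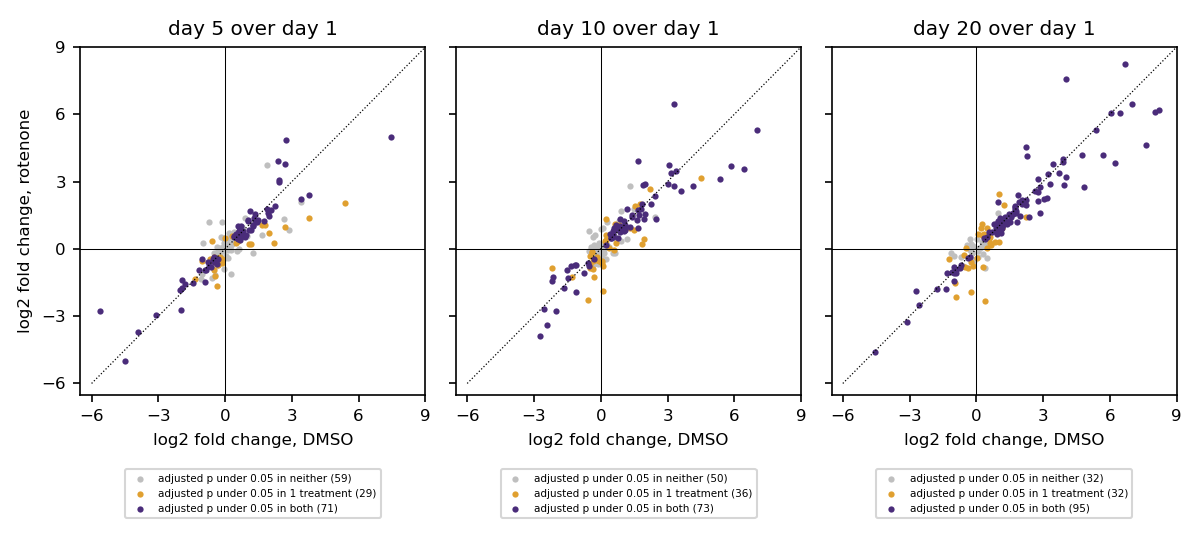
Log2 fold change over day 1 in DMSO (x axis) and in rotenone (y axis) of the 159 tested F-box A genes at days 5, 10 and 20, coloured by whether the adjusted p was under 0.05 in both treatments, in 1 or in neither; the dotted line marks equal change. At day 20, 95 genes passed in both treatments, and the points lie along the line. The extreme folds rest on few or no reads at day 1.

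Rotenone values for the leading members were close to those in DMSO at day 20. fbxa-24 rose by 6.48 ± 0.17 (adjusted p = 2.62e-16), fbxa-30 by 5.30 ± 0.28 (adjusted p = 3.95e-12) and fbxa-158 by 6.06 ± 0.69 (adjusted p = 2.77e-07), while fbxa-72 fell by 4.61 on the log2 scale (SE 0.15, adjusted p = 3.95e-15). The limit given above for fbxa-30 and fbxa-158, that they passed the filter through other groups, holds here too. fbxa-47 rose by 2.85 ± 0.43 (adjusted p = 1.23e-05), against 3.94 ± 0.45 in DMSO, a difference that did not pass the interaction test.

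The other large F-box groups did not show the same counts. Of 107 tested F-box B genes, 17 were higher and 46 lower at day 20 in DMSO, with a median log2 fold change of -0.37, and of 43 tested F-box C genes, 14 were higher and 12 lower, with a median of -0.13. Over all tested genes 27.8% were higher and 30.9% lower. With rotenone, 8 F-box B genes were lower at day 5 and 12 at day 10, which is 7.48% and 11.2% of those tested, while F-box A genes had 1 lower at each. Of the F-box C genes 1 was lower at day 1, 3 at day 5 and 7 at day 10, or 2.33%, 6.98% and 16.3% of the 43. Of all tested genes 0.648% passed in either direction at day 1, and 0.773% and 0.910% were lower at days 5 and 10. Without DMSO day 10 replicate 1 the day 10 counts were 21 lower for F-box B, 9 lower and 1 higher for F-box C, and 2 lower and 3 higher for F-box A. Those lower were 19.6%, 20.9% and 1.27% of the tested genes of each group. In that fit 7.95% of all tested genes were lower and 6.32% higher. The difference between the groups was not tested. Among 7 F-box genes with known single roles, 2 were lower at day 20 in DMSO, and 5 were higher and 1 lower at day 5. At day 5 in DMSO 24.6% of all tested genes were higher and 31.3% lower.

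Markers of tissues moved with age as well. Summed intestine markers, 12 genes with the yolk protein genes vit-1 to vit-6 among them, ranged from 46167 to 59572 CPM in DMSO at day 1 and from 5659 to 10117 CPM at day 20, with none at 0. Summed germline markers ranged from 3391 to 3664 CPM and from 2716 to 2955 CPM, and oocyte and eggshell markers from 11258 to 12116 CPM and from 11781 to 11870 CPM, none at 0 in either group. Embryo markers ranged from 195 to 213 CPM at day 1 and from 194 to 243 CPM at day 20, with 1 of 42 at 0 in each. Summed sperm markers ranged from 34.4 to 38.3 CPM at day 1, from 9.39 to 11.1 CPM at day 5 and from 18.6 to 20.6 CPM at day 20, with 3, 18 and 20 of 52 genes at 0. Between treatments, embryo markers were at 172 to 188 CPM in DMSO and 129 to 137 CPM in rotenone at day 5, without overlap, and at 175 to 187 and 130 to 142 CPM at day 10. Other sums also stood apart. At day 1 rotenone was lower for intestine (34666 to 41426 CPM), germline (3003 to 3117 CPM) and oocyte and eggshell markers (10055 to 10637 CPM) than the DMSO ranges above. At day 20 it was higher for germline (3172 to 3232 CPM) and oocyte and eggshell markers (12951 to 14223 CPM). Sperm markers at day 10 were at 15.8 to 17.8 CPM in DMSO and 13.7 to 14.7 CPM in rotenone. The remaining ranges overlapped between treatments. The part of these markers in the changes of F-box A genes was not tested.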

How the data were processed

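The authors deposited a table of read counts per gene, whole numbers without normalization per the labels, and a table of RPKM values. The deposited RPKM values were used in no test. Per the submitters' processing notes, the tools were HTSeq and TopHat 1.4.1, on build WBcel235. Settings are not given in the sources used here. Every sample column was mapped by its label. Counts were tested with edgeR 4.0.16 (quasi-likelihood) in R 4.3.3 after filterByExpr and TMM scaling, all 8 groups in 1 fit. P-values were adjusted by Benjamini-Hochberg over all 16822 tested genes, with a threshold of 0.05, and the fit was tested on simulated data. SE was derived from the F statistic. The common biological coefficient of variation was 0.135. CPM uses TMM-scaled totals. Coordinates and gene types came from RefSeq (WBcel235), exonic lengths from Ensembl release 115.

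The members and all gene lists were chosen with earlier results of these data known. Named members were up to 6 per direction and rotenone comparison, 5 per DMSO age comparison and 4 per interaction with the largest log2 fold change, adjusted p under 0.05 and a mean of at least 20 counts. To these came the 6 highest per kilobase, fbxa-75, fbxa-158 and the partners cul-1, cul-6, skr-1, skr-3, skr-4, skr-5 and fog-2. Other names were chosen after their values were seen. Alternatives were RLE factors, no filter, DESeq2 1.42.0, only the groups compared, a length trend removed (lowess span 0.3), a replicate block and each library left out.

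Replicate numbers of DMSO and rotenone were checked for pairing. Deviations of same-numbered libraries from their group means correlated at 0.43, 0.22 and 0.16 at day 10, at 0.04, 0.11 and 0.05 at day 1, at 0.06, 0.03 and 0.16 at day 5, and at 0.10 and 0.10 at day 20. Among the ages with 3 pairs, every correlation was over 0.1 at day 10 only. Differently numbered libraries also correlated there, DMSO replicate 2 with rotenone replicate 3 at 0.24 and DMSO replicate 3 with rotenone replicate 2 at 0.17. The numbers therefore do not tell pairs apart among replicates 2 and 3. The other differently numbered pairs of day 10 were below 0. Day 20 has 2 pairs, at 0.10 each.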

Additional observations from a re-analysis of the deposited data

How the results depend on the processing

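Counts of F-box A genes called with age stayed within 1.5-fold in 36 of 36 alternatives other than leaving out a library. Without 1 library they ranged over 72 to 94, 79 to 87 and 90 to 112 in DMSO at days 5, 10 and 20, and over 70 to 84, 82 to 104 and 91 to 124 in rotenone. Of 128 calls of named members, 115 held in every alternative, 13 were lost in some and 0 reversed. Small counts moved. For rotenone against DMSO at day 1 (0 members), no filter gave 3 and only the groups compared 13. At day 5 (1 member), no filter gave 2. At day 10 (1 member), RLE size factors and only the groups compared gave 0 each and no filter 2. For the interactions (0 members each), only the groups compared gave 3 at day 5 and 2 at day 20, no filter 2 at day 10 and 1 at day 20, and DESeq2 and the length trend removed 1 each at day 10. Without 1 library, counts ranged over 0 to 6, 0 to 1, 0 to 5 and 0 to 0 at days 1, 5, 10 and 20, and over 0 to 2, 0 to 1 and 0 to 2 for the interactions. The highest, 6 and 5 for rotenone and 2 for the interactions at days 5 and 20, came without DMSO day 10 replicate 1. The causes were not tested, and these counts are given here without the shares of all genes in the same fits.

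With the replicate number as a block the interaction at day 10 had 1 member, and with a replicate block at each day it also had 1, which was fbxa-24 in both. The replicate block at each day gave 4 members for rotenone at day 1. The block changed no other count of the rotenone comparisons and interactions, and gave 90, 89 and 104 members for DMSO and 84, 98 and 113 for rotenone at days 5, 10 and 20.

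Members near the filter rest on few reads, and day 20 has 2 libraries per group.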
